A study of Rattus norvegicus with 10 samples.

Results

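The genes described here are 10 load-responsive genes of heart muscle, chosen by name: Edn1, Hbegf, Gdf15, Ccn1, Ccn2, Ankrd1, Xirp1, Xirp2, Fhl1 and Rcan1. They were chosen with earlier results of these data known. Shares of all genes set beside their counts are therefore a description and not a test. A probe set was annotated to 9 of the 10, and the expression of Xirp2 was not analysed here. The 9 genes had 12 probe sets of 31042, because Fhl1 has 3 and Ankrd1 has 2, and all 9 passed the filter on low values among 18393 tested genes and unnamed probe sets. Transcripts were measured with Affymetrix rat expression arrays. The cells were ventricular cardiomyocytes from Lewis rats aged 0 to 3 days, kept in primary culture for 3 days under 1 of 3 conditions. These were electric pulses at 1 Hz and 2 V/cm with 10 µmol/L blebbistatin (pulsed with blebbistatin, n = 3 arrays), the same pulses alone (pulsed, n = 4), and no pulses (nonpulsed, n = 3). Blebbistatin inhibits myosin II and so blocks contraction, and blebbistatin was not applied without pulses in these samples.

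RNA of duplicate experiments was pooled for every array. Cells were isolated and cultured on 4 occasions, called series 1 to 4. Series was a block in the fit, so p-values rest on the spread of arrays left after differences between series are removed. Series 1 held a pulsed and a nonpulsed array, series 2 and 3 held all 3 conditions, and series 4 held a pulsed array with blebbistatin and a pulsed array. Medians over the arrays lay between 6.57 and 6.78 on the log2 scale, the lowest level between 3.32 and 3.46, and the highest between 13.90 and 14.03. The number of arrays limits the precision. All 10 cardiomyocyte markers were measured, and the log2 of their summed level was 16.30 to 16.38 in pulsed arrays with blebbistatin, 16.15 to 16.39 in pulsed arrays and 15.76 to 16.20 in nonpulsed arrays. Fibroblast and smooth muscle markers were also measured above the lowest level on every array. In bulk RNA of such cultures fewer cells of a type and less RNA per cell cannot be told apart.

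Heart muscle cells sense load at their adhesions and through the giant spring protein titin and the Z-disc, where neighbouring sarcomeres meet. Load is known to act on genes through the YAP and TAZ coactivators with TEAD factors, through MRTF with serum response factor, and through the calcium-activated phosphatase calcineurin with NFAT. The products of such genes include secreted peptides that act on neighbouring cells, matrix-associated proteins, and proteins of the Z-disc and intercalated disc, the junction between heart muscle cells.

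The endothelin 1 gene Edn1 and the matrix protein genes Ccn1 and Ccn2 were lower in pulsed cultures with blebbistatin than in pulsed cultures of the same series, as were Hbegf and Fhl1. In the fit Hbegf was 2.33-fold lower (without series 4 its log2 change was -0.28), Edn1 2.18-fold and Ccn1 1.87-fold, and Ccn2 and Fhl1 1.24-fold and 1.23-fold. Ankrd1, Xirp1, Rcan1 and Gdf15 had fitted changes between -0.09 and 0.08 on the log2 scale. In limma with culture series as a block, 0 of the 9 genes passed the Benjamini-Hochberg adjusted threshold of 0.05 in this comparison, where 0.0163% of all genes tested did. At an unadjusted p under 0.05, 4 of the 9 were lower (Edn1, Fhl1, Ccn2 and Ccn1), where 5.6% of all genes were, and 0 of the 9 were higher, where 6.23% were. The count of 4 lower genes was 2 in the fit with no replicate block, and it ranged from 1 to 5 when a series or an array was left out, with 1 without series 3 and 1 without the pulsed array of series 2. In all 3 series that held both conditions 6 of the 9 were lower, where 15.1% of all genes were, and these were the 4 just named, Hbegf and Ankrd1. None of the 9 was higher in all 3, where 24.1% of all genes were. For none of the 9 did all blebbistatin arrays lie below all pulsed arrays, as 3.69% of all genes did. The median fitted change of the 9 genes was -0.30, against 0.02 over all genes tested.

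**Figure D1:**
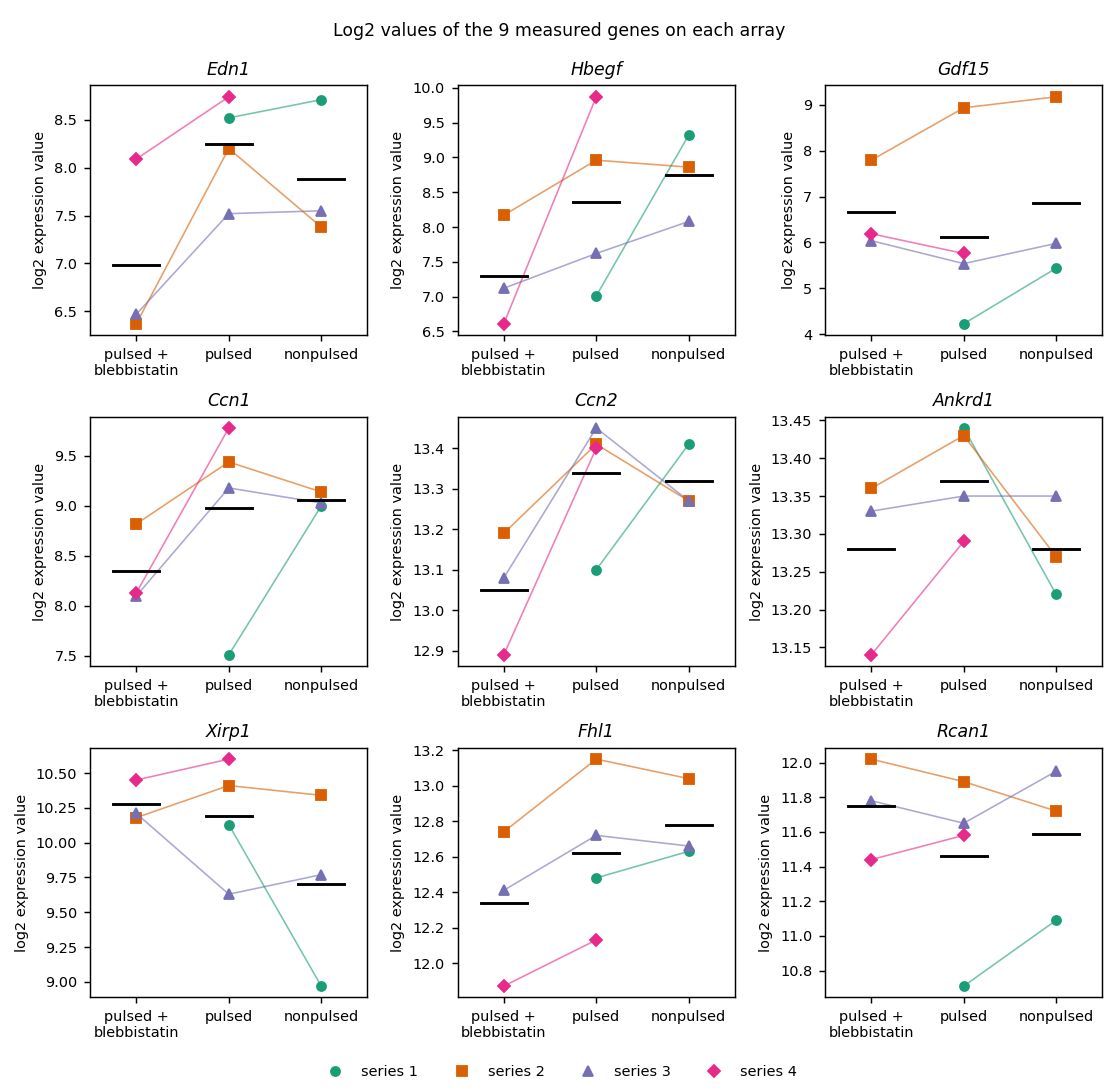
Log2 expression value (vertical axes, a separate scale for each gene) of the 9 genes on each of the 10 arrays, by condition. Each symbol is an array, colours and symbols give the culture series, thin lines join arrays of a series and black bars are group means. For Edn1 the blebbistatin array is the lowest in each of series 2, 3 and 4, while for Gdf15 the 3 arrays of series 2 lie above all others.

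Edn1 encodes the precursor of endothelin 1, a vasoconstrictor peptide that also acts on heart muscle cells and is a classic hypertrophic signal. In pulsed arrays with blebbistatin of series 2, 3 and 4, Edn1 had log2 values of 6.37, 6.47 and 8.09. In pulsed arrays of series 1 to 4 it had 8.52, 8.20, 7.52 and 8.74. In nonpulsed arrays of series 1, 2 and 3 it had 8.71, 7.38 and 7.55. The blebbistatin array of series 4 lay within the range of both other groups, so the groups overlap, while within each series the blebbistatin array was the lowest.

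For Edn1 the differences between pulsed arrays with blebbistatin and pulsed arrays were -1.83, -1.05 and -0.65 for series 2, 3 and 4. The fitted log2 change was -1.13 (SE 0.22, 95% interval -1.65 to -0.60). This change had an unadjusted p of 0.00135 and a limma adjusted p of 0.199, and 0.674% of all genes had a smaller p. Of the 9 genes, Edn1 had the smallest p in this comparison. Leaving out a series or an array moved the Edn1 change between -1.34 and -0.84, and it was lower each time. Against nonpulsed arrays the differences of pulsed arrays with blebbistatin were -1.01 and -1.08 (series 2 and 3), and the fitted change was -1.0 (SE 0.25, limma adjusted p = 0.0975). Both comparisons share the blebbistatin arrays.

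Hbegf encodes heparin-binding EGF-like growth factor, a membrane-anchored ligand of the EGF receptor that is shed by metalloproteases. Hbegf had log2 values of 8.17, 7.12 and 6.61 in pulsed arrays with blebbistatin of series 2, 3 and 4. It had 7.01, 8.96, 7.62 and 9.87 in pulsed arrays of series 1 to 4, and 9.32, 8.86 and 8.08 in nonpulsed arrays of series 1 to 3. The pulsed group alone spanned 2.86 log2 units, from the array of series 1 to that of series 4, and contained most of the other values.

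The blebbistatin array was below the pulsed array by -0.78, -0.50 and -3.26 in series 2, 3 and 4. The fitted change of Hbegf was -1.22 (SE 0.64, 95% interval -2.71 to 0.28), with a limma adjusted p of 0.50. Series 4 carried most of this value, and without it the change was -0.28 (unadjusted p = 0.581 in limma). Against nonpulsed arrays the differences of Hbegf with pulses and blebbistatin were -0.68 and -0.96 in series 2 and 3, the 2 series that held both. The fitted change was -1.77 (SE 0.72, limma adjusted p = 0.204), larger than both, because the fit on all arrays also draws on series 1 and 4 through their pulsed arrays. With only the 2 groups it was -0.82, and with a series left out it lay between -2.49 (without series 2) and -1.17 (without series 4).

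Gdf15 encodes growth differentiation factor 15, a stress-induced hormone of the TGF beta superfamily. Its log2 values were 7.79, 6.04 and 6.19 in pulsed arrays with blebbistatin of series 2, 3 and 4. They were 4.23, 8.93, 5.54 and 5.76 in pulsed arrays of series 1 to 4, and 5.44, 9.17 and 5.98 in nonpulsed arrays of series 1 to 3. The arrays grouped by series here: the 3 arrays of series 2 had values of 7.79 to 9.17, and the other 7 lay between 4.23 and 6.19. No Gdf15 value was at the lowest level of its array, but the 4.23 of the pulsed array of series 1 was near that array's 3.46. The range of Gdf15 over the 10 arrays, 4.94 log2 units, was the widest of the 9 genes.

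Within series, Gdf15 was lower with blebbistatin in series 2 (-1.14) and higher in series 3 (0.50) and series 4 (0.42) than in pulsed arrays. The fitted change was 0.01 with a 95% interval of -0.76 to 0.78, so the interval holds changes of either sign. Without series 2 the change was 0.57. Pulsed arrays were below nonpulsed arrays in all 3 shared series, by -1.20, -0.24 and -0.43 in series 1, 2 and 3. That fitted change was -0.70 (SE 0.33, 95% interval -1.47 to 0.08, limma adjusted p = 0.571), and -0.46 without series 1.

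Ccn1 and Ccn2 encode matricellular proteins, secreted proteins that bind integrins and matrix and are widely used as readouts of YAP and TEAD activity. The 250 bases before the RefSeq start site of both genes (build GRCr8) are shown because of this use as readouts. Capitals mark the TEAD motif GGAATG or its reverse complement. Ccn1 lies at chr2:237225690-237225939 and Ccn2 at chr1:22624615-22624864, both on the minus strand, each read 5′ to 3′ towards the start site.
Ccn1: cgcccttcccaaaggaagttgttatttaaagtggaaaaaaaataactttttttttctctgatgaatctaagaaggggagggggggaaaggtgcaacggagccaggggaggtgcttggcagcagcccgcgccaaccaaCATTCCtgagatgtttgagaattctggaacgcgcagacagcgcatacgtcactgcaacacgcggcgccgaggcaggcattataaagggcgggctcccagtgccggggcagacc
Ccn2: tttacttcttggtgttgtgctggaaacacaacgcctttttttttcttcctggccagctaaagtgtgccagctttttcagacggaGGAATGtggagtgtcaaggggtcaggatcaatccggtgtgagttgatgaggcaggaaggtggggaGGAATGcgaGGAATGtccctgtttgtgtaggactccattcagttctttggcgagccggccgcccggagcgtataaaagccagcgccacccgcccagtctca

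The Ccn2 window held 3 matches, which begin 166, 101 and 92 bases before the start site, and the Ccn1 window held 1 match on the opposite strand, 113 bases before it. Of 33469 RefSeq windows of this length, 12.1% held at least 1 match on either strand and 0.0807% held 3 or more, a number chosen after the Ccn2 sequence was seen. Among the 13 windows of the 9 listed genes found in the promoter table, those of Ccn1 and Ccn2 were the 2 with this motif. Ankrd1 had no window there and was not searched, while Xirp2, with no probe set, was. Windows of Edn1, Hbegf and Fhl1, which were also lower with blebbistatin, held 0 matches. Any part of TEAD in these changes was not tested. The AP-1 motif TGANTCA was found in 4 windows (2 of Xirp1, 1 each of Xirp2 and Rcan1), against 6.34% of all windows. The cAMP response element TGACGTCA was in that of Rcan1, against 1.59%, and the serum response factor CArG box in 1 window of Fhl1, against 1.5%. The NFAT motif GGAAA was in 9 of the 13 windows, against 56.9%. Both strands were searched for each motif, and the 2 Xirp1 windows with AP-1 overlap each other. The TEAD matches of Ccn1 and Ccn2 overlap no other motif searched, and a match is a description of letters and not a binding site.

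Ccn1 had log2 values of 8.82, 8.10 and 8.13 in pulsed arrays with blebbistatin of series 2, 3 and 4. It had 7.51, 9.44, 9.18 and 9.78 in pulsed arrays of series 1 to 4, and 9.0, 9.14 and 9.03 in nonpulsed arrays of series 1 to 3. All 3 blebbistatin arrays lay below all 3 nonpulsed arrays, and below every pulsed array except that of series 1, which was the lowest of the 10. Of all genes tested, 6.77% had all blebbistatin arrays below all nonpulsed arrays, as Ccn1 and Ccn2 did.

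The Ccn1 differences between pulsed arrays with blebbistatin and pulsed arrays were -0.62, -1.08 and -1.65 in series 2, 3 and 4. The fitted change was -0.91 (SE 0.37, 95% interval -1.77 to -0.04), with an unadjusted p of 0.0419 and a limma adjusted p of 0.402. Without series 4 it was -0.56. Against nonpulsed arrays the Ccn1 differences with pulses and blebbistatin were -0.33 and -0.93 in series 2 and 3. The fitted change of -1.13 (SE 0.41, limma adjusted p = 0.171) was larger than both, and with only the 2 groups it was -0.63.

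Ccn2, also known as connective tissue growth factor, is linked to fibrosis. It had log2 values of 13.19, 13.08 and 12.89 in pulsed arrays with blebbistatin of series 2, 3 and 4. It had 13.10, 13.41, 13.45 and 13.40 in pulsed arrays of series 1 to 4, and 13.41, 13.27 and 13.27 in nonpulsed arrays of series 1 to 3. As for Ccn1, the pulsed array of series 1 stood below the other pulsed arrays and the blebbistatin arrays lay below all nonpulsed ones. These values are near the highest level of the arrays, 13.90 to 14.03, and whether signals this bright were compressed was not tested.

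The Ccn2 differences between pulsed arrays with blebbistatin and pulsed arrays were -0.22, -0.38 and -0.51 in series 2, 3 and 4. The fitted change was -0.31 (SE 0.13, unadjusted p = 0.0409, limma adjusted p = 0.40). Against nonpulsed arrays the Ccn2 differences were -0.08 and -0.20 in series 2 and 3, and the fitted change was -0.27 (SE 0.14, limma adjusted p = 0.293). It was -0.14 with only the 2 groups and -0.17 without series 1.

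Fhl1 encodes a LIM-domain protein that binds titin. With its brightest probe set it had log2 values of 12.74, 12.41 and 11.87 in pulsed arrays with blebbistatin of series 2, 3 and 4. It had 12.48, 13.15, 12.72 and 12.13 in pulsed arrays of series 1 to 4, and 12.63, 13.04 and 12.66 in nonpulsed arrays of series 1 to 3. The groups overlap because series 2 was high and series 4 low in each condition measured there, while the differences within series were alike. Pulsed arrays with blebbistatin differed from pulsed arrays by -0.41, -0.31 and -0.26, with a mean of -0.33 ± 0.08 (SD, n = 3).

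The fitted change of Fhl1 was -0.30 (SE 0.09, 95% interval -0.52 to -0.09), with an unadjusted p of 0.0117 and a limma adjusted p of 0.313. Its other 2 probe sets had changes of -0.41 (SE 0.13) and -0.21 (SE 0.15) in the same comparison. All 3 probe sets were lower with blebbistatin in each of the 3 series. Against nonpulsed arrays the fitted change with pulses and blebbistatin was -0.31 (SE 0.10, limma adjusted p = 0.149).

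Ankrd1 encodes an ankyrin repeat protein that binds titin and also acts in the nucleus, and it is among the genes best known to respond to stretch. Its brighter probe set had log2 values of 13.36, 13.33 and 13.14 in pulsed arrays with blebbistatin of series 2, 3 and 4, near the highest level of the arrays. It had 13.44, 13.43, 13.35 and 13.29 in pulsed arrays of series 1 to 4, and 13.22, 13.27 and 13.35 in nonpulsed arrays of series 1 to 3. All 10 values lay within 0.30 log2 units, the narrowest range of the 9 genes. The fitted change with blebbistatin against pulsed arrays was -0.09 (95% interval -0.30 to 0.11). The other probe set of Ankrd1 had -0.13 (SE 0.07). As for Ccn2, compression of signals this bright was not tested.

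Xirp1 encodes Xin, an actin-binding protein of the intercalated disc. It had log2 values of 10.18, 10.21 and 10.45 in pulsed arrays with blebbistatin of series 2, 3 and 4. It had 10.13, 10.41, 9.63 and 10.60 in pulsed arrays of series 1 to 4, and 8.97, 10.34 and 9.77 in nonpulsed arrays of series 1 to 3. The nonpulsed array of series 1 was the lowest of the 10, and the other 9 overlapped between conditions. The fitted change with blebbistatin against pulsed arrays was -0.07 (95% interval -0.65 to 0.52).

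Rcan1 encodes an inhibitor of calcineurin that is itself induced by the calcineurin and NFAT pathway. It had log2 values of 12.02, 11.78 and 11.44 in pulsed arrays with blebbistatin of series 2, 3 and 4. It had 10.71, 11.89, 11.65 and 11.58 in pulsed arrays of series 1 to 4, and 11.09, 11.72 and 11.95 in nonpulsed arrays of series 1 to 3. Both arrays of series 1 lay below all others, and the conditions overlapped. The fitted change with blebbistatin against pulsed arrays was 0.08 (95% interval -0.24 to 0.41). The array does not tell the isoforms of Rcan1 apart here, since 1 probe set was annotated to it.

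**Figure D2:**
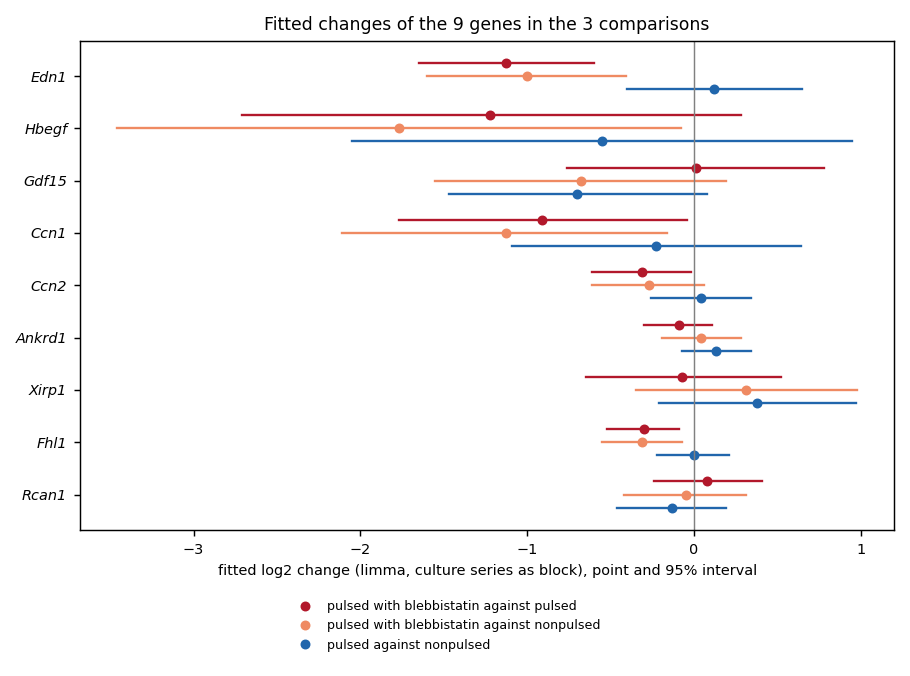
Fitted log2 change (horizontal axis) of the 9 genes in the 3 comparisons, with points for limma estimates and lines for 95% intervals. The intervals of Edn1, Ccn1, Ccn2 and Fhl1 lie below 0 for pulsed with blebbistatin against pulsed, and all 9 intervals of pulsed against nonpulsed include 0.

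Pacing without blebbistatin was set against no pacing in series 1, 2 and 3. By the probe sets that stood for the genes, none of the 9 was higher in all 3 shared series, where 24.7% of all genes were, and Gdf15 was lower in all 3, where 9.67% were. The probe sets of Ankrd1 differed in this: the brighter one was higher by 0.21 and 0.16 in series 1 and 2 and at 13.35 on both arrays of series 3, while the other was higher in all 3, by 0.11, 0.16 and 0.09. In limma 0 of the 9 passed the adjusted threshold, as did 0.0% of all genes tested, and at an unadjusted p under 0.05 the counts were 0 of 9 and 9.1%. By direction at that threshold, 0 of the 9 were higher, where 7.83% of all genes were, and 0 were lower, where 1.27% were. The fitted changes were 0.38 for Xirp1 (95% interval -0.21 to 0.97), 0.13 for Ankrd1 (-0.07 to 0.34), 0.12 for Edn1 (-0.40 to 0.65) and 0.04 for Ccn2 (-0.26 to 0.34). They were -0.13 for Rcan1 (-0.46 to 0.19), -0.23 for Ccn1 (-1.09 to 0.64) and -0.55 for Hbegf (-2.05 to 0.95), and Fhl1 had an interval of -0.22 to 0.21. The intervals of Hbegf, Ccn1 and Gdf15 leave room for changes of 2-fold or more in the lower direction.

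Series 1 stood apart for several of these genes. There the pulsed array differed from its nonpulsed partner by -2.31 for Hbegf, -1.49 for Ccn1, -0.31 for Ccn2 and 1.16 for Xirp1. In series 2 and 3 the same differences were 0.10 and -0.46 for Hbegf, 0.29 and 0.15 for Ccn1, 0.15 and 0.18 for Ccn2, and 0.07 and -0.14 for Xirp1. Without series 1 the fitted changes were 0.26 for Hbegf, 0.36 for Ccn1, 0.20 for Ccn2 and 0.02 for Xirp1. Edn1 was 0.82 higher in the pulsed array of series 2 and differed by -0.19 and -0.03 in series 1 and 3.

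**Figure D3:**
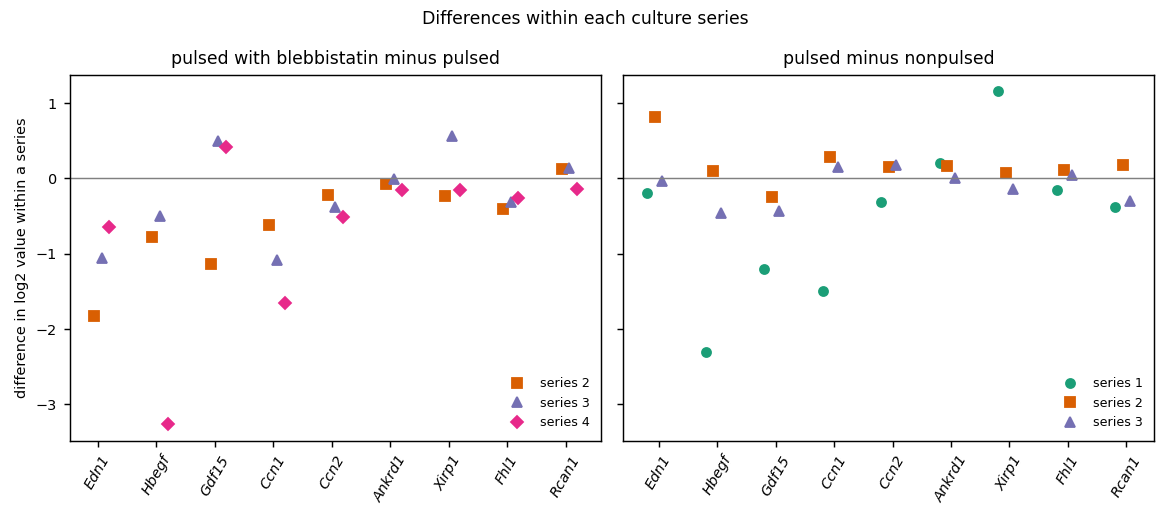
Difference in log2 value between arrays of the same culture series (vertical axis) for the 9 genes, for pulsed with blebbistatin minus pulsed on the left and pulsed minus nonpulsed on the right. The points of Edn1, Hbegf, Ccn1, Ccn2 and Fhl1 are all below 0 on the left, with Hbegf of series 4 at -3.26, and on the right the point of series 1 is far below the others for Hbegf and Ccn1.

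Pulsed cultures with blebbistatin were also set against nonpulsed cultures, which share series 2 and 3. In this comparison 5 of the 9 genes were lower in both series (Edn1, Hbegf, Ccn1, Ccn2 and Fhl1), where 25.2% of all genes were. In limma 0 of the 9 passed the adjusted threshold, where 0.343% of all genes did, and 4 were lower at an unadjusted p under 0.05 (Edn1, Fhl1, Ccn1 and Hbegf), where 6.8% of all genes were. This count was 0 with no replicate block and 1 without series 3. None was higher at that threshold (15.8% of all genes) or higher in both series (39.1%). The median fitted change of the 9 was -0.31, against 0.07 over all genes. Gdf15 had -0.68 (95% interval -1.55 to 0.19), with -1.38 and 0.06 in series 2 and 3, and the fitted change was -0.09 without the blebbistatin array of series 2. Xirp1 had 0.31 (0.14 with only the 2 groups), Ankrd1 0.04 and Rcan1 -0.05. The 3 comparisons share arrays, so their values are not independent of each other.

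Genes related to the ligands were described as lists. Of the endothelin system 3 of 7 genes were tested, and 0 passed the adjusted threshold in any comparison. The receptor genes Ednra and Ednrb had no probe set annotated to them alone. Ece1, the endothelin-converting enzyme, had a change of -0.29 (SE 0.10) with blebbistatin against pulsed arrays. Against nonpulsed arrays Ece1 had -0.48 (SE 0.12, limma adjusted p = 0.0953) with pulses and blebbistatin. It was the member with the largest change between pulsed and nonpulsed arrays (-0.19, SE 0.10). Mme, neprilysin, which degrades small peptides, had the largest change with blebbistatin against pulsed (-0.51, SE 0.30) and against nonpulsed arrays (-0.50, SE 0.34).

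Among the 12 tested EGF receptor ligands, receptors and sheddases, 0 passed the adjusted threshold. The median change with blebbistatin against pulsed arrays was 0.02, the same as over all genes. The ligand gene Tgfa had the largest change, 1.04 (SE 0.45) against pulsed and 1.07 (SE 0.51) against nonpulsed arrays, opposite in sign to Hbegf. The ligand genes Egf and Nrg1 were also positive in both comparisons. The ligand genes Areg and Ereg were negative like Hbegf. They had -0.68 and -0.45 against pulsed and -1.01 and -0.45 against nonpulsed arrays. Between pulsed and nonpulsed arrays the largest change was that of Egf, with 0.74 (SE 0.20, limma adjusted p = 0.49).

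The CCN family has other members than Ccn1 and Ccn2. All 3 tested (Ccn3, Ccn4 and Ccn5, with Ccn6 below the filter) had negative changes with blebbistatin against pulsed arrays, with a median of -1.11, and 0 passed the adjusted threshold. In that comparison 10248 of all 18393 genes tested had positive changes. At an unadjusted p under 0.05, 2 were lower (Ccn3 and Ccn5), where 5.6% of all genes were, and Ccn4 had -0.42 (SE 0.30). Ccn3 had a mean log2 value of 9.06 in pulsed arrays with blebbistatin and 11.13 in pulsed arrays, with a fitted change of -1.87 (SE 0.26, limma adjusted p = 0.0883). Ccn3 had -1.98 (SE 0.29, limma adjusted p = 0.0525) against nonpulsed arrays. Ccn5, which lacks the C-terminal domain of other family members, had -1.11 (SE 0.28) against pulsed arrays. Between pulsed and nonpulsed arrays the largest change was that of Ccn5, -0.23 (SE 0.28).

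In the YAP, TAZ and TEAD pathway 21 of 23 genes were tested, and 0 passed the adjusted threshold in any comparison. With blebbistatin against pulsed arrays 15 were lower and 6 higher, with a median of -0.19, where 10248 of all 18393 genes tested had positive changes. At an unadjusted p under 0.05, 4 were lower (Tead3, Vgll3, Lats2 and Tgfb2), where 5.6% of all genes were. The kinase gene Nuak2, a known YAP target, had the largest change, -1.22 (SE 0.59) against pulsed and -1.01 (SE 0.66) against nonpulsed arrays. Ajuba had the largest between pulsed and nonpulsed arrays (0.25, SE 0.18), where the median was 0.02. In the TGF beta pathway the 11 tested genes had a median of -0.08 with blebbistatin against pulsed arrays, and 0 passed. Its largest changes were those of Tgfb3 with blebbistatin (-0.58, SE 0.33, against pulsed and -0.73, SE 0.37, against nonpulsed arrays) and of the inhibitory Smad6 with pacing (0.42, SE 0.27).

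Further lists covered the pathways and partners of Rcan1, Ankrd1, Fhl1 and Xirp1. The calcineurin and NFAT genes had a median of 0.02 over 14 genes with blebbistatin against pulsed arrays, and 0 of them had an unadjusted p under 0.05 there, where 11.8% of all genes did. Rcan2, a relative of Rcan1, had the largest change in each comparison, 0.20 against pulsed and 0.74 against nonpulsed arrays with blebbistatin, and 0.54 (SE 0.26) with pacing. The titin, Z-disc and FHL genes had a median of 0.07 over 11 genes, led by Flnc, filamin C (0.37, SE 0.16). Against nonpulsed arrays this list had a median of 0.40 with blebbistatin and 0.23 with pulses alone, with Ldb3, a Z-disc protein, at 0.82 and 0.55. Cardiomyocyte markers had changes of the same sign, with all 10 positive in both comparisons and medians of 0.34 with blebbistatin and 0.29 with pulses alone. Of all 18393 genes tested, 11298 and 11405 were positive in these 2 comparisons. The part of the cardiomyocyte markers was not tested. The Xin partners had a median of 0.02 over 7 genes, led by Flnc, which is also in the Z-disc list. The intercalated disc gene Nrap had 0.57 (SE 0.22) with blebbistatin and 0.40 (SE 0.19) with pulses alone against nonpulsed arrays. MRTF and SRF regulators had a median of -0.12 over 8 genes with blebbistatin, led by Abra (-0.34, SE 0.26). Myocd, myocardin, led with 0.56 (SE 0.25) in pulsed and 0.27 (SE 0.28) in blebbistatin arrays against nonpulsed ones. In all 4 lists 0 genes passed the adjusted threshold in any comparison.

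Stress response genes linked to Gdf15, with the gene of its co-receptor Ret, formed the last list. These 8 tested genes had a median of 0.26 with blebbistatin against pulsed arrays, and 0 passed the adjusted threshold. Of the 8, 6 were positive, where 10248 of all 18393 genes tested were. At an unadjusted p under 0.05, 3 were higher (Atf5, Ddit3 and Trib3), where 6.23% of all genes were. Ddit3, the transcription factor CHOP of the integrated stress response, had the largest change, 0.82 (SE 0.16, limma adjusted p = 0.199) against pulsed and 0.79 (SE 0.18) against nonpulsed arrays. Gdf15 itself had 0.01 and -0.68 in these comparisons. Between pulsed and nonpulsed arrays the glutathione-degrading Chac1 led with -0.48 (SE 0.14), and 7 of the 8 were negative, where 11405 of all 18393 genes tested were positive.

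**Figure D4:**
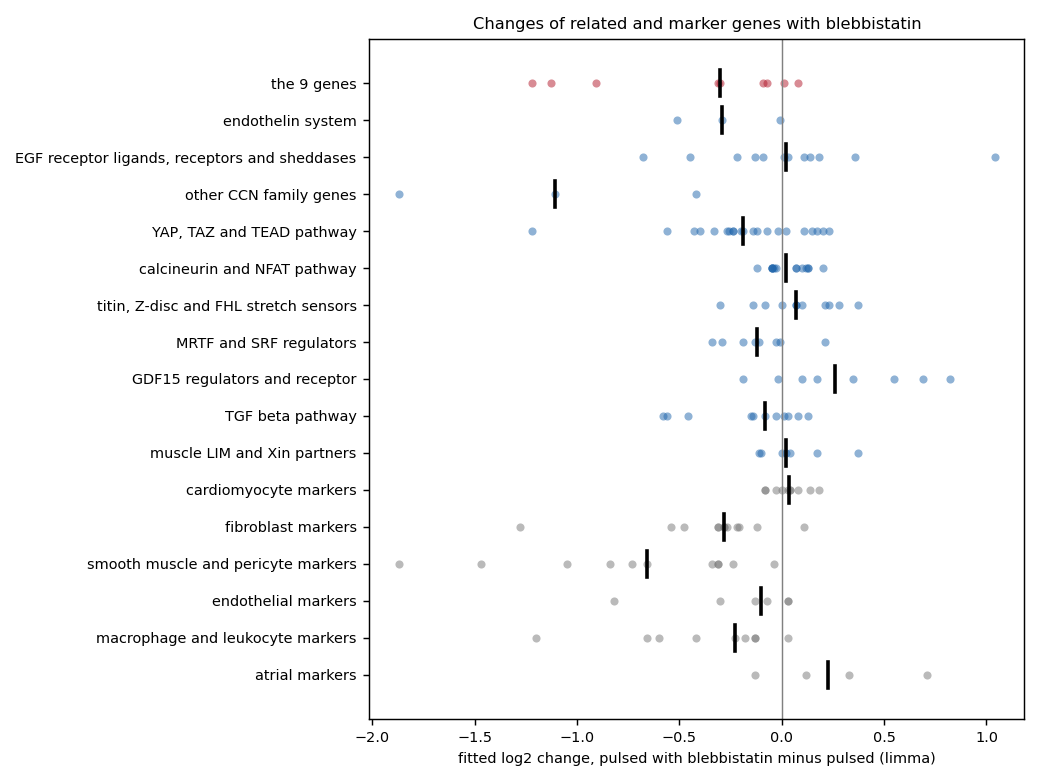
Fitted log2 change for pulsed with blebbistatin minus pulsed (horizontal axis) of every tested gene, as a point, in each list, with black bars for medians. The 9 genes are at the top, related pathway lists in blue and cell type markers in grey. The other CCN family and the smooth muscle and pericyte markers have the lowest medians, -1.11 and -0.66.

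Markers of smooth muscle cells, fibroblasts and macrophages had mostly negative changes with blebbistatin beside Edn1, Ccn1 and Ccn2, and 0 markers of any list passed the adjusted threshold. Against pulsed arrays 10248 of all 18393 genes tested had positive changes. All 11 smooth muscle and pericyte markers had negative changes against pulsed arrays, with a median of -0.66. These markers differed, from -1.87 for Cnn1 to -0.04 for Pdgfrb, with Notch3, Cspg4 and Rgs5 between -0.34 and -0.24. The log2 of their summed level was 13.11 to 13.66 in pulsed arrays with blebbistatin, 13.97 to 14.25 in pulsed arrays and 13.85 to 14.57 in nonpulsed arrays. This sum weights bright markers most, such as Acta2 and Tagln, with means of 12.82 and 12.44 in pulsed arrays. The mean log2 value of the 11 was 8.19 to 8.80, 9.06 to 9.33 and 8.93 to 9.74 in the same order. By both measures the blebbistatin arrays did not overlap the others. Of single genes, 3.69% lay wholly below pulsed and 6.77% wholly below nonpulsed arrays. Of the 12 fibroblast markers 11 were negative, with a median of -0.28. Their summed level was 15.29 to 15.86 in pulsed arrays with blebbistatin, 15.46 to 16.12 in pulsed and 15.59 to 16.15 in nonpulsed arrays. The 6 tested endothelial markers of 9 had a median of -0.10, with 4 negative, and the largest change was that of Pecam1, -0.82 (SE 0.20). The summed level of the 6 was 10.40 to 10.97 in pulsed arrays with blebbistatin, 10.35 to 11.00 in pulsed and 10.30 to 10.92 in nonpulsed arrays. Of the 9 tested macrophage and leukocyte markers of 11, 8 were negative with a median of -0.23. Their summed level was 10.52 to 11.53 with pulses and blebbistatin, 10.65 to 12.29 in pulsed and 10.80 to 12.55 in nonpulsed arrays. The 10 cardiomyocyte markers had a median of 0.03 and the 4 tested atrial markers one of 0.22. Some cardiomyocyte and fibroblast markers were about as bright as Ccn2, such as Myh6 and Col1a1 with means of 13.38 and 13.34 in pulsed arrays. Compression of their signals was not tested. No tested marker was at the lowest level of an array except 1 macrophage marker in the blebbistatin group. The part of other cells in the lower levels of Edn1, Hbegf, Ccn1, Ccn2 and Fhl1 was not tested.

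A measure of RNA quality, the 3′ minus 5′ difference of the GAPDH control probe sets, was 0.20 ± 0.02 (SD, n = 3) in pulsed arrays with blebbistatin. It was 0.11 ± 0.04 (SD, n = 4) in pulsed arrays, and nonpulsed arrays had 0.13 ± 0.06 (SD, n = 3). For hexokinase it was 0.92 ± 0.11 in pulsed arrays with blebbistatin, 0.95 ± 0.11 in pulsed and 0.89 ± 0.03 in nonpulsed arrays, and for actin 0.72 ± 0.04, 0.67 ± 0.05 and 0.59 ± 0.12 for pulsed with blebbistatin, pulsed and nonpulsed. Its part in the results was not tested.

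For the 4 genes of widest range, the genes of most similar profile were found among 11845 others with 1 symbol. The measure was the root mean square difference over the 10 arrays between profiles centred on their own means, in log2 units. The profile of Edn1 was nearest to those of Afap1l2 (0.28), Pdlim2 (0.302) and Aoc3 (0.308). That of Hbegf was nearest to Noct (0.412), Epha2 (0.426) and Plaur (0.435). Ccn1 was nearest to Rgs2 (0.31), Otud1 (0.318) and Cited2 (0.353), and Gdf15 to Sncg (0.878), Anp32a (0.929) and Areg (0.972). Among the 9 genes themselves the nearest to Hbegf was Ccn1, at place 12 (0.588), and the nearest to Gdf15 was Rcan1, at place 123 (1.294). The nearest to Ccn1 was Ccn2, at place 200 (0.527), and the nearest to Edn1 was Ccn2, at place 3897 (0.783).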

How the data were processed

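Biotin-labelled total RNA was hybridised to the arrays, per the labels' protocols. The deposited log2 values, 1 per probe set and array, came from PLIER run in Affymetrix Expression Console 1.1, according to the submitters' processing notes. No source used here states its settings or the logarithm's base, and base 2 was taken from the lowest level, 10.0 on the linear scale. No further scaling was applied.

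The table has 31099 probe sets, of which 57 controls were left out. A platform annotation gave 1 symbol to 20826, several to 436 and none to 9780, and 0 symbols changed through the gene identifiers of the GRCr8 gene table. Probe sets in the lowest 25% of mean value were left out, and the probe set with the highest mean stood for its gene.

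Conditions were compared with limma 3.58.1 in R 4.3.3 (two-sided moderated test). All 10 arrays entered the fit, with culture series as a block since the conditions hold different series. The Benjamini-Hochberg adjustment ran over 18393 genes and unnamed probe sets. Series come from the sample titles. Deviations of arrays from their group means correlated at 0.273 to 0.561 in the 8 pairs of the same series and at -0.527 to 0.435 in 25 pairs of different series. The study design names 3 arrays per treatment, while the labels give 4 pulsed arrays, all used. The fit was tested on simulated data for blebbistatin against pulsed. It recovered 75 of 100 genes with a log2 change of 1 and 97 of 100 with a change of 2, with 10 false calls among other genes. The simulated noise was independent between genes and arrays and held no differences between series. These shares therefore check the fitting steps and do not give the power of the fit on the real arrays.

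The 10 genes and the lists were chosen with earlier results of these data known. The text names all 10 genes, the gene of each pathway list with the largest change in each comparison, the list genes counted at an unadjusted p, and the 3 nearest profiles of the 4 genes of widest range. Any further gene was picked once its values were known. Alternatives were no block, a random block, quantile normalization, median centring, other filters, the mean of probe sets, an intensity trend, fits of 2 groups, and each series and array left out. Promoter sequences are from RefSeq, build GRCr8, matched by symbol for 9 of the 10 genes.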

Additional observations from a re-analysis of the deposited data

Results flagged for a closer look

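The Ccn2 value of the pulsed array of series 1, 13.10, was far below the other 3 pulsed arrays, which lay at 13.40 to 13.45, by Dixon's test of the lowest of 4 values. Each of the 12 probe sets was looked at in the 4 pulsed arrays, and chance flags about 1 in 20 such groups. On the same array Ccn1 was at 7.51 and Hbegf at 7.01.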

How the results depend on the processing

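The count of the 9 genes past the adjusted threshold was 0 in each comparison under all 23 alternatives. The fits take 3 or 4 arrays a group, and for Hbegf, with an SE of 0.64, the interval spans both signs. With no replicate block, the counts of all genes called were 1 for blebbistatin against pulsed and 30 for blebbistatin against nonpulsed, in place of 3 and 63. With a random replicate block they were 7 and 1020, with no filter 0 and 1, with an intensity trend 8 and 163, and with only 2 groups 0 and 2. With the lowest 50% left out the first was 6. Leaving out arrays or series gave 0 to 30 and 0 to 46. The number of the 9 genes lower at an unadjusted p under 0.05, an alternative count added after the data were seen, was 2 of 9 with no replicate block and 2 with a random replicate block for blebbistatin against pulsed. It was 0 with no replicate block for blebbistatin against nonpulsed, and 1 with only 2 groups for pulsed against nonpulsed. Leaving out arrays or series gave 1 to 5 for blebbistatin against pulsed, 1 to 4 for blebbistatin against nonpulsed and 0 to 1 for pulsed against nonpulsed. Some signs turned, among them those of Hbegf and Ccn1 for pulsed against nonpulsed, at -0.55 and -0.23 with all arrays. For blebbistatin against pulsed, Xirp1 had 0.09 with no replicate block, 0.01 with a random block and 0.07 with only 2 groups, and Gdf15 had -0.07 with only 2 groups and -0.00 with median centring. For blebbistatin against nonpulsed, Rcan1 had 0.16, 0.05 and 0.07 under those 3 fits, and Ankrd1 had -0.00 with no block and -0.04 with median centring. For pulsed against nonpulsed, Ccn2 had -0.01 with quantile normalization and -0.03 with median centring, and Fhl1 had 0.00 with only 2 groups. With arrays or series left out, the ranges for pulsed against nonpulsed were -0.59 to 0.36 for Ccn1, -0.04 to 0.20 for Ccn2, -0.16 to 0.27 for Edn1, -0.05 to 0.06 for Fhl1 and -1.02 to 0.26 for Hbegf. For blebbistatin against pulsed they were -0.32 to 0.57 for Gdf15, -0.03 to 0.18 for Rcan1 and -0.34 to 0.11 for Xirp1, and for blebbistatin against nonpulsed -0.29 to 0.04 for Rcan1. Under every alternative Edn1, Hbegf, Ccn1, Ccn2 and Fhl1 stayed lower with blebbistatin than in pulsed arrays. Gdf15 was not part of the fit with the lowest 50% left out. The cause of these shifts was not tested.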
